A study of Mus musculus with 6 samples.

Results

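The 39 genes described here are members of the p53 network and of the BCL2 and caspase machinery of apoptosis. They were chosen as a list of symbols and looked up in the deposited count table, in which 39 of 39 were found among 27998 gene symbols. The table comes from single-cell RNA sequencing of germ cells of the mouse fetal testis at embryonic day 14.5. Cells were sorted for the red fluorescent protein tdTomato and made into 10x Genomics v2 libraries, in which each molecule carries a unique molecular identifier (UMI) and is read at its 3′ end. The 3 Rb1 cKO samples carry a conditional knockout of the retinoblastoma gene Rb1, and the 3 control samples are labelled wildtype. All 6 samples are of male embryos of embryonic day 14.5 on a mixed C57/B6 and 129 strain background. The labels give neither the Cre driver nor the deleted part of Rb1, they do not say which allele carries the tdTomato reporter or whether the controls carry a Cre, and they do not tie the replicates to separate animals or litters. P-values here speak only of the scatter among these 6 samples, some of which may be technical.

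The protein p53, encoded by Trp53, is a transcription factor that is held low by the MDM proteins and is released when DNA is damaged or the cell is stressed. It then raises genes of growth arrest, repair and metabolism, raises its own inhibitor Mdm2, and raises BH3-only proteins of the BCL2 family, which bind the anti-apoptotic members and free BAX and BAK to open the outer mitochondrial membrane. Cytochrome c released in this way assembles with APAF1 and activates caspase-9. Fetal germ cells are known to undergo waves of apoptosis, and the retinoblastoma protein restrains the E2F factors, some of whose targets are genes of p53 signalling and apoptosis.

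After filtering, 5154 of 5160 cells were kept, and library totals ran from 7598511 to 17323152 UMIs. Cells carried the numbers of 5 clusters that the authors had given, without cell type names. Cluster 4 held 98 cells and clusters 0 to 3, called the rest here, held 5056. Cluster 0 was led by Stra8 and E2f8, cluster 1 by Cdc20 and Ccnb1, cluster 2 by histone genes, cluster 3 by Slc39a1 and Notch2, and cluster 4 by Dcxr and Cald1. The members Phlda3 and Btg2 were among the 10 leading genes of cluster 4, and the member Bik among the 10 of cluster 0. Rb1 itself, on chromosome 14 from 73183673 to 73325822, stood at 3.46, 3.73 and 3.57 CPM (UMIs of a gene per 1000000 UMIs of the summed library) in Rb1 cKO samples, against 10.3, 8.82 and 6.87 CPM in controls. A 3′ read can lie outside the deleted part, so this value may check nothing about the deletion. A barcode sequence was shared by 2 libraries in 9 cases, none of them in cluster 4, and Scrublet called 160 cells doublets, 0 of them in cluster 4.

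Cluster 4 carried germ cell transcripts, with some markers lower than in the other cells. The 10 germ cell markers summed to 8681 to 9920 CPM in cluster 4 over the 6 samples and to 8469 to 9501 CPM in the rest, and the sum was carried mainly by Dppa5a, at 4527 ± 501 CPM in cluster 4 and 4202 ± 464 CPM in the rest (SD, n = 6), and Dppa3, at 2557 ± 247 CPM in cluster 4 and 2607 ± 162 CPM in the rest. Dazl, an RNA-binding protein of germ cells, had 1069 ± 132 CPM in cluster 4 and 1176 ± 139 CPM in the rest and was lower in cluster 4 in 6 of 6 samples. Sall4 was higher in cluster 4 in 1 of 6 samples, Mael in 2, Kit in 3 and Ddx4 in 4. Pou5f1, a pluripotency factor of early germ cells, had 653 ± 33.0 CPM in cluster 4 and 638 ± 28.1 CPM in the rest. Nanos3, which protects early germ cells from death, had 8.88 ± 3.31 CPM in cluster 4 and 21.6 ± 4.46 CPM in the rest and was lower in cluster 4 in 6 of 6 samples. Nanos2, a determinant of the male germ cell fate, had 1 UMI in cluster 4 in all and averaged 5.41 ± 1.85 CPM in the rest.

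Of the markers of other testis cells, 4 of 5 Leydig and 4 of 5 interstitial stromal genes had 0 UMIs in cluster 4. Sertoli markers summed to 0 to 20.9 CPM in cluster 4 and 3.98 to 19.0 CPM in the rest, and macrophage markers to 0 to 6.30 CPM in cluster 4 and 1.05 to 50.9 CPM in the rest. The endothelial list summed to 44.1 to 64.6 CPM in cluster 4 and 43.7 to 69.1 CPM in the rest, with Cdh5 and Kdr at 0 UMIs in cluster 4. Nearly all of that sum was Pecam1, at 39.5 CPM on average in cluster 4 and 38.6 CPM in the rest, and Egfl7, at 14.4 and 13.4 CPM. Erythroid markers summed to 0 to 37.8 CPM in cluster 4 and 6.12 to 33.1 CPM in the rest. The 9 immediate early and heat shock genes, which also answer to tissue dissociation, summed to 104 to 186 CPM in cluster 4 and 87.5 to 114.8 CPM in the rest, and were higher in cluster 4 in 6 of 6 samples. The sum was carried mainly by Ier2, at 104 ± 28.4 CPM in cluster 4 and 77.1 ± 6.06 CPM in the rest (SD, n = 6). Ier2 and Egr1 were higher in cluster 4 in 5 of 6 samples, Fos and Junb in 4, and Jun and Hspa1a in 1. Fosb, Hspa1b and Atf3 of that list had 0 UMIs in cluster 4. The part of this list in the results on cluster 4 was not tested. Median UMIs per cell were 12328.5 in cluster 4 and 13496 to 15517.5 in clusters 0 to 3. The median mitochondrial share of UMIs was 4.34%, 4.32% and 3.78% in cluster 4 of Rb1 cKO samples and 4.58%, 3.90% and 3.55% in cluster 4 of controls, against 3.87%, 4.12% and 3.59% in the rest of Rb1 cKO samples and 3.91%, 3.89% and 3.60% in the rest of controls. It was higher in cluster 4 in 5 of 6 samples, and the part of this share and of depth in the results on cluster 4 was not tested.

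Rb1 cKO and control samples overlapped in the share of their cells in cluster 4. The shares were 2.08%, 1.90% and 1.72% in Rb1 cKO samples and 1.66%, 2.33% and 1.99% in controls, from 10, 18 and 20 cells against 13, 10 and 27 cells. Exact binomial 95% intervals of the 6 shares, which cover counting error only, spanned 0.889% to 4.24%. The means were 1.90% ± 0.183 in Rb1 cKO samples and 1.99% ± 0.331 in controls (SD, n = 3 each), and the groups overlapped. The difference was -0.0926 percentage points with an exact two-sided permutation p of 0.7, where 3 against 3 samples allow no p below 0.1. Without control 2 the difference had the opposite sign, at 0.0728 percentage points with an exact permutation p of 0.8.

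Cluster 4 held more transcripts of many p53 targets than the rest did, in Rb1 cKO and control samples alike, while Trp53 itself was higher in 4 samples and lower in 2. Of 29 members with a mean of at least 5 CPM over the 6 whole libraries, 14 were higher in cluster 4 in 6 of 6 samples and 0 were lower in 6 of 6. Among all 8427 genes past that filter, 4.05% were higher in cluster 4 in every sample and 5.16% were lower. For 10 members the mean log2 ratio of cluster 4 to the rest was also 1 or more, which 0.831% of all genes reached. The authors made the clusters from these same cells and genes, and the members were chosen with earlier results known. The counts are therefore a description with no test. Ratios were taken per sample as log2 of (CPM in cluster 4 + 1) over (CPM in the rest + 1). The pseudocount pulls ratios of low genes toward 0, while a sample with 0 UMIs in cluster 4 gives a strongly negative ratio. Pooled values are therefore given beside the mean for Casp9, Xiap and Hipk2.

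The median log2 ratio over the 29 members was 0.63, against -0.13 over all 8427 genes. In the summed cluster 4 library of a sample, 1 UMI was worth 3.03 to 8.08 CPM, so many genes of low level had 0 there. With UMIs pooled over the 6 samples the medians were 0.58 for members and -0.00 for all genes. Of the 100 genes with the largest ratio, 10 were members. Another 10 members fell below the level filter and are given by their UMIs further on.

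**Figure D1:**
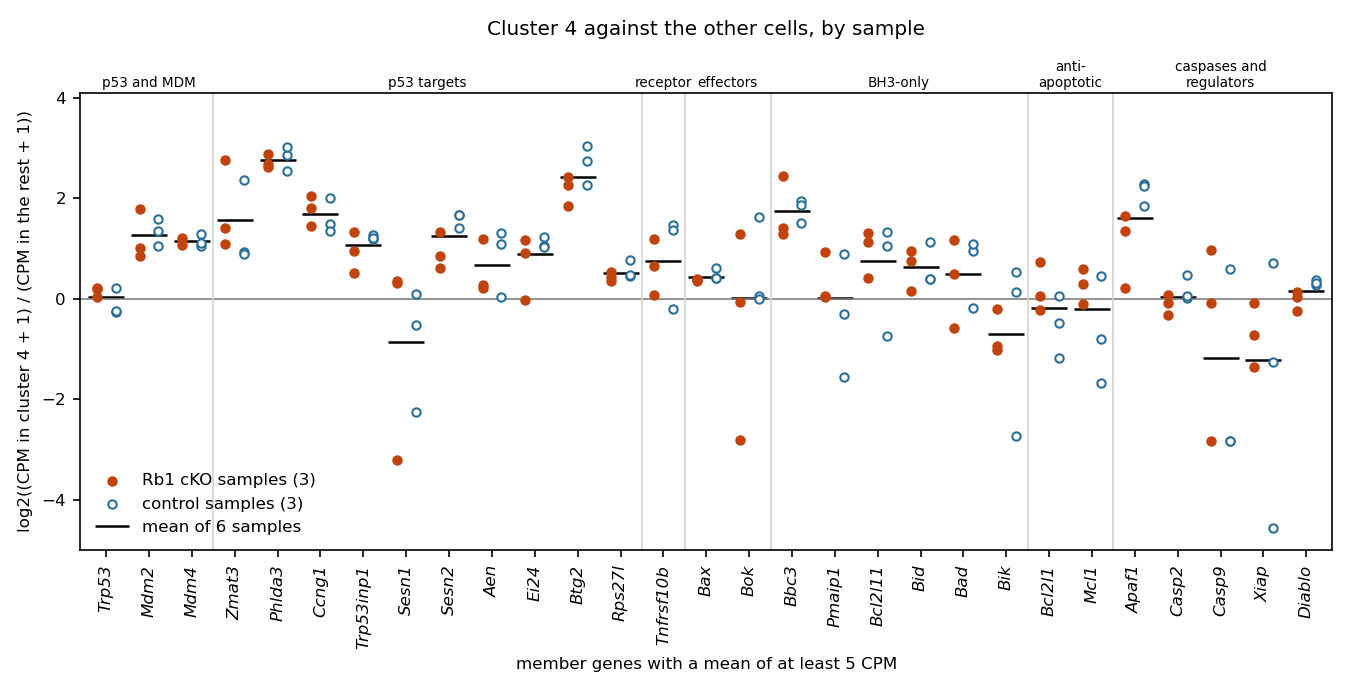
Each point is the log2 ratio of cluster 4 to the rest in 1 sample (filled, Rb1 cKO; open, control), for the 29 members with a mean of at least 5 CPM, grouped by role; the bars are means of the 6 samples. The 14 members with all 6 points above 0 include Phlda3 (mean 2.77), Btg2 (2.43) and Bbc3 (1.74), while Trp53 (0.03) lies at 0 and the points of Sesn1, Casp9 and Xiap are widely spread.

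Among the regulators of p53, both MDM genes were higher in cluster 4 and Trp53 was not. Trp53, on chromosome 11 from 69580359 to 69591873 (GRCm38, as all positions of genes here), had 323, 328 and 276 CPM in Rb1 cKO samples 1 to 3 and 229.7, 239.5 and 339.6 CPM in controls 1 to 3 within cluster 4, against 269.9 to 294 CPM in the rest. It was higher in cluster 4 in 4 of 6 samples and lower in 2, with a mean log2 ratio of 0.03 ± 0.22 (SD, n = 6, as for all ratios of this kind). The direction therefore differed between samples, with controls 1 and 2 below their own remaining cells.

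Mdm2, on chromosome 10 from 117688875 to 117710758, encodes the ubiquitin ligase that degrades p53 and is itself a p53 target. It had 250.3, 152 and 129 CPM in Rb1 cKO samples 1 to 3 and 146, 202 and 191 CPM in controls 1 to 3 within cluster 4, against 62.7 to 78.1 CPM in the rest. Every cluster 4 value exceeded every value of the rest, and the mean log2 ratio was 1.28 ± 0.37. Mdm4, on chromosome 1 from 132959484 to 133030561, encodes a relative of MDM2 that blocks the transactivation domain of p53. It had 145, 147 and 143 CPM in Rb1 cKO samples 1 to 3 and 153, 145 and 164 CPM in controls 1 to 3 within cluster 4, against 61.8 to 74.7 CPM in the rest, and its mean log2 ratio of 1.15 ± 0.09 had the smallest spread of the 29 members. Trp73, a relative of p53, was near its limit of detection, with 5 UMIs in cluster 4 in all. Its whole libraries held 0.768, 0.159 and 0.178 CPM in Rb1 cKO samples and 0.0914, 0.526 and 0.924 CPM in controls, or 1 to 16 UMIs.

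The p53 targets of growth arrest, repair and stress held most of the members that were higher in cluster 4. Of the 15 members with this role, 10 passed the level filter and 8 of these were higher in 6 of 6 samples, with a median log2 ratio of 1.17. The largest ratio of any member past the filter was that of Phlda3, on chromosome 1 from 135766119 to 135769136, whose PH-domain protein competes with AKT for membrane lipids. Phlda3 had 210, 191 and 122 CPM in Rb1 cKO samples 1 to 3 and 181, 239.5 and 167 CPM in controls 1 to 3 within cluster 4, against 19.1 to 31.8 CPM in the rest. Its mean log2 ratio was 2.77 ± 0.18, the third largest of all 8427 genes, and cKO 3 had the lowest level in both kinds of cell.

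Btg2, on chromosome 1 from 134075170 to 134079120, encodes an anti-proliferative protein that recruits the deadenylase complex to mRNAs. Btg2 had 113, 68.5 and 62.9 CPM in Rb1 cKO samples 1 to 3 and 118, 107 and 121 CPM in controls 1 to 3 within cluster 4, against 12.3 to 21.6 CPM in the rest, and a mean log2 ratio of 2.43 ± 0.42. In cluster 4 the samples cKO 2 and cKO 3 stood below the other 4. Ccng1, on chromosome 11 from 40748552 to 40755311, encodes cyclin G1, which acts in feedback on MDM2. It had 145, 181 and 87.4 CPM in Rb1 cKO samples 1 to 3 and 90.5, 113 and 158 CPM in controls 1 to 3 within cluster 4, against 31.2 to 43.7 CPM in the rest, and a mean log2 ratio of 1.69 ± 0.30. For both genes every cluster 4 value exceeded every value of the rest.

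Sesn2 and Trp53inp1 were higher in cluster 4 by smaller amounts. Sesn2, on chromosome 4 from 132492032 to 132510501, encodes a sestrin, which restrains mTORC1 and oxidative stress. It had 40.4, 48.9 and 31.5 CPM in Rb1 cKO samples 1 to 3 and 69.6, 81.9 and 66.7 CPM in controls 1 to 3 within cluster 4, against 18.7 to 25.1 CPM in the rest, with a mean log2 ratio of 1.26 ± 0.44. Trp53inp1, on chromosome 4 from 11156431 to 11174379, encodes a nuclear stress protein that also takes part in autophagy. It had 88.8, 73.4 and 45.4 CPM in Rb1 cKO samples 1 to 3 and 83.5, 88.3 and 78.8 CPM in controls 1 to 3 within cluster 4, against 31.4 to 37.6 CPM in the rest, with a mean log2 ratio of 1.08 ± 0.30, and cKO 3 was the lowest of the 6.

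Zmat3, which encodes an RNA-binding zinc finger protein, rested on few molecules. It had 56.5, 14.7 and 21.0 CPM in Rb1 cKO samples 1 to 3 and 48.7, 18.9 and 15.2 CPM in controls 1 to 3 within cluster 4 from 3 to 7 UMIs a sample, against 6.37 to 9.41 CPM in the rest, and a mean log2 ratio of 1.58 ± 0.80. The samples cKO 1 and control 1 stood high and the other 4 between 14.7 and 21.0 CPM. Sesn1, the other sestrin on the list, did not share the pattern. It had 0, 9.78 and 6.99 CPM in Rb1 cKO samples 1 to 3 and 6.96, 0 and 3.03 CPM in controls 1 to 3 within cluster 4 from 0 to 2 UMIs a sample, against 3.76 to 8.20 CPM in the rest, and was higher in 3 samples and lower in 3. At this depth a difference of Sesn1 was not detectable.

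Rps27l, on chromosome 9 from 66946086 to 66949516, a ribosomal protein gene that p53 raises, supplied 51.2% of the summed CPM of the 39 members. It had 2503, 2431 and 2388 CPM in Rb1 cKO samples 1 to 3 and 2353, 3069.9 and 2789 CPM in controls 1 to 3 within cluster 4, against 1709 to 2009 CPM in the rest, with a mean log2 ratio of 0.50 ± 0.14. Its near-identical copy Rps27 had a log2 ratio of -0.08 ± 0.09 and was higher in cluster 4 in 1 of 6 samples. The shift of Rps27l was thus not shared by its paralog, although a read that fits both genes cannot tell them apart. Aen, a nuclease of apoptotic DNA cleavage, was higher in 6 of 6 samples with a mean log2 ratio of 0.68 ± 0.57. Ei24, a membrane protein of the endoplasmic reticulum first found as a p53-induced gene, was higher in 5 of 6 with 0.89 ± 0.46, the exception being cKO 3 at 48.9 CPM in cluster 4 and 49.8 CPM in the rest.

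The other 5 targets stood below the level filter. Plk2, on chromosome 13 from 110395046 to 110400844, a polo-like kinase, had 32.3, 14.7 and 14.0 CPM in Rb1 cKO samples 1 to 3 and 20.9, 56.7 and 54.6 CPM in controls 1 to 3 within cluster 4, against 0.911 to 5.38 CPM in the rest. This came from 41 UMIs in cluster 4, and with UMIs pooled over samples Plk2 was 16.3-fold higher in cluster 4, the largest pooled ratio among members with more than 3 UMIs there. Perp, a membrane protein of desmosomes and p53-dependent death, had 16.2, 9.78 and 3.50 CPM in Rb1 cKO samples 1 to 3 and 13.9, 63.0 and 3.03 CPM in controls 1 to 3 within cluster 4 from 18 UMIs, against 1.51 to 2.96 CPM in the rest. Of these UMIs 10 came from control 2. The receptor gene Eda2r had 12 UMIs in cluster 4, the stress genes Gadd45a and Ddit3 8 and 10.

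**Figure D2:**
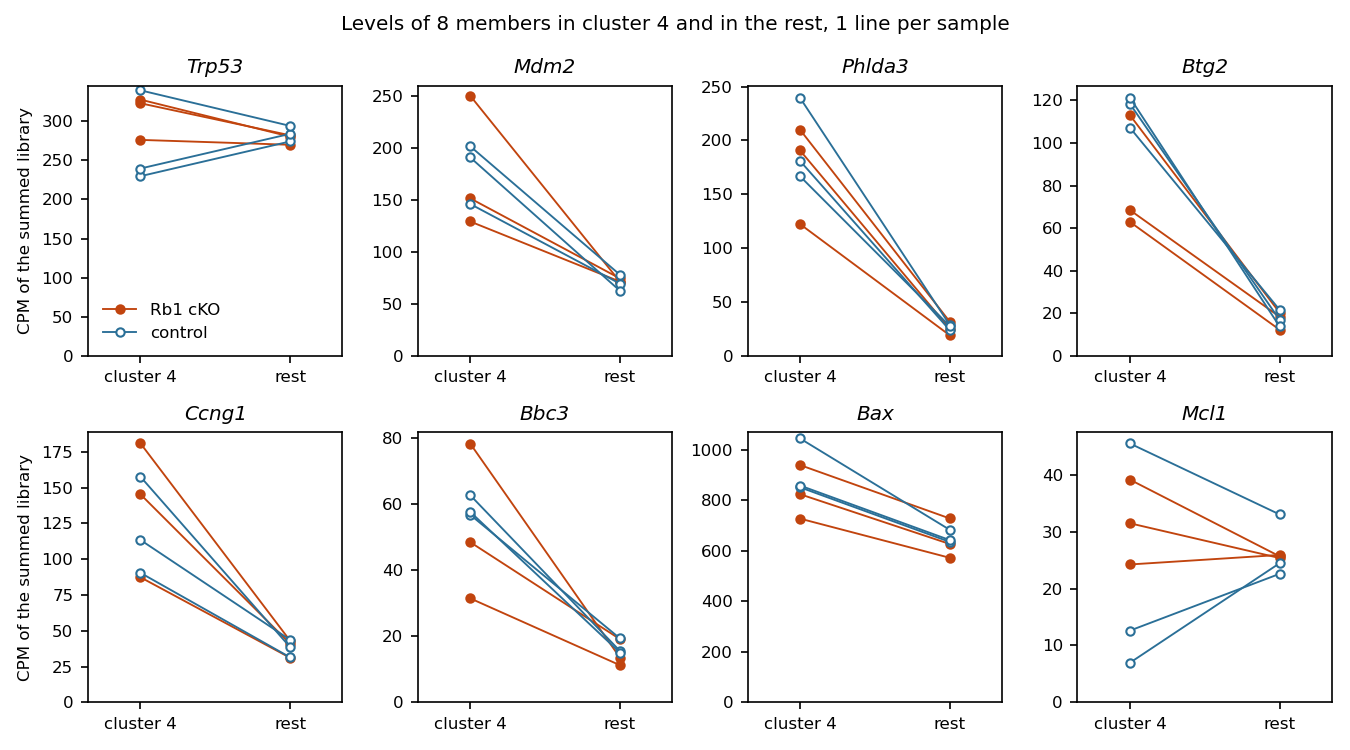
CPM of 8 members in the summed cluster 4 library (left) and in the summed rest (right) of each sample, with 1 line per sample (filled, Rb1 cKO; open, control) and axes from 0. Lines of Mdm2, Phlda3, Btg2, Ccng1, Bbc3 and Bax all run down to the rest, with Phlda3 at 122 to 239.5 CPM in cluster 4 and 19.1 to 31.8 CPM in the rest, while those of Trp53 and Mcl1 cross.

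The promoters of the members are shown where they hold a p53 half-site, because these genes are the ones whose regulation the list is about. The window was 250 bases before to 50 bases after each RefSeq gene start (GRCm38.p6), and it was searched for the p53 half-site consensus without a mismatch. That motif is its own reverse complement, so 1 search covers both strands. RefSeq promoters were found for 33 of 39 members, and 9 of the 33 (27.3%) held a match, against 2582 of 27025 genes (9.55%). Genes with several starts had several windows. Counted by promoter, 10 of 46 of the members held a match, against 2745 of 32851 (8.36%) of all genes. Many members were put on the list as p53 targets, so the contrast with all genes is no test. A match is a description of letters and not a binding site. Capitals mark the half-site, and each sequence is written 5′ to 3′ on the strand of its gene. Mdm2, Ccng1 and Bax, which were higher in cluster 4 in every sample, are shown over the bases that precede both the RefSeq and the GENCODE start.
Mdm2, chr10:117710759-117711008 (minus strand): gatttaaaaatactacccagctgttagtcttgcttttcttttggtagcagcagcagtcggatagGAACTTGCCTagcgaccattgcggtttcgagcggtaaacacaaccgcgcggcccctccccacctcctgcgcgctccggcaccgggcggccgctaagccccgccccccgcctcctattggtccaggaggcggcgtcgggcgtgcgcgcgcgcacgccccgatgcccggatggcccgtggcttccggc
Ccng1, chr11:40755312-40755536 (minus strand): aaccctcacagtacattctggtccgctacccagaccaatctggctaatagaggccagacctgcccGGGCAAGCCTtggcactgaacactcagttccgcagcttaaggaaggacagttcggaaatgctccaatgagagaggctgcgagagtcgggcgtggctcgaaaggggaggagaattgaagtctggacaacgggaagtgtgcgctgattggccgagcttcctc
Bax, chr7:45466899-45467148 (minus strand): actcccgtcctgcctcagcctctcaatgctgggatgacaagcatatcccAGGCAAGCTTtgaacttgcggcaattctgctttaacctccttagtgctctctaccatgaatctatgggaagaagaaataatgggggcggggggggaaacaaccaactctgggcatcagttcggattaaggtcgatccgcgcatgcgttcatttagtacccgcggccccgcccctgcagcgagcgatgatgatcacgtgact

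The half-sites of these genes began at positions -186, -185 and -201 counted from the RefSeq start. The other members with a match are shown as the half-site with 10 bases on each side. Rps27l held 2 matches.
Rps27l, chr9:66946193-66946222 (plus strand): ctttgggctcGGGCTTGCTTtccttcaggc
Rps27l, chr9:66946296-66946325 (plus strand): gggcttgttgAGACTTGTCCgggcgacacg
Aen, chr7:78895927-78895956 (plus strand): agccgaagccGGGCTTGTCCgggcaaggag
Ei24, chr9:36797325-36797354 (minus strand): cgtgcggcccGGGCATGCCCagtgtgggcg
Sesn1, chr10:41887256-41887285 (plus strand): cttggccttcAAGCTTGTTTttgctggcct
Gadd45a, chr6:67037428-67037457 (minus strand): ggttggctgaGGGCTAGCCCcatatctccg
Trp53, chr11:69580274-69580303 (plus strand): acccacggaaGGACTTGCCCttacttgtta

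With members on either side of the level filter counted, the half-site was present in 5 of 13 matched members that were higher in 6 of 6 samples (Mdm2, Ccng1, Bax, Aen and Rps27l) and in 4 of the other 20 (Ei24, Sesn1, Gadd45a and Trp53). Plk2, Phlda3 and Btg2 held none in this window, nor did Bbc3, Sesn2, Mdm4 or Apaf1. Nothing about p53 binding follows from its presence or absence in these letters.

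Within the BCL2 family, the effector Bax and the BH3-only genes Bbc3 and Bid were higher in cluster 4 in every sample, and the anti-apoptotic genes were not. Bax, on chromosome 7 from 45461697 to 45466898, encodes the pore-forming effector of the outer mitochondrial membrane. It had 824, 939 and 727 CPM in Rb1 cKO samples 1 to 3 and 1044, 851 and 858 CPM in controls 1 to 3 within cluster 4, against 572 to 728 CPM in the rest, with a mean log2 ratio of 0.43 ± 0.10. This shift was small but of a similar size in all samples, with control 1 the highest at 0.61. Bak1, the other main effector, had 0 UMIs in cluster 4 of any sample. Over the pooled 1246493 UMIs of cluster 4 that allows up to 2.41 CPM, which is above its mean of 0.906 CPM in the rest. A lower level of Bak1 in cluster 4 was therefore not detectable, nor was a higher one of up to 2.41 CPM. Its whole libraries held 1.15, 0.794 and 0.595 CPM in Rb1 cKO samples and 0.914, 0.790 and 1.10 CPM in controls. Bok, a less studied effector, was higher in 3 of 6 samples on 0 to 3 UMIs a sample.

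Bbc3, on chromosome 7 from 16308393 to 16318205, encodes PUMA, a BH3-only protein that binds all anti-apoptotic members. It had 48.5, 78.3 and 31.5 CPM in Rb1 cKO samples 1 to 3 and 62.7, 56.7 and 57.6 CPM in controls 1 to 3 within cluster 4, against 11.3 to 19.4 CPM in the rest, and a mean log2 ratio of 1.74 ± 0.43, with cKO 2 the highest and cKO 3 the lowest. Bid, which links death receptors to mitochondria, had 40.4, 34.2 and 24.5 CPM in Rb1 cKO samples 1 to 3 and 48.7, 31.5 and 39.4 CPM in controls 1 to 3 within cluster 4, against 19.8 to 29.5 CPM in the rest, and a mean log2 ratio of 0.63 ± 0.38. Pmaip1, which encodes NOXA, the other BH3-only protein best known as a p53 target, differed in direction between samples. It had 121, 68.5 and 48.9 CPM in Rb1 cKO samples 1 to 3 and 20.9, 94.6 and 30.3 CPM in controls 1 to 3 within cluster 4, against 37.5 to 65.4 CPM in the rest, and a mean log2 ratio of 0.01 ± 0.91.

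Bcl2l11, which encodes BIM, had 32.3, 29.3 and 17.5 CPM in Rb1 cKO samples 1 to 3 and 6.96, 31.5 and 30.3 CPM in controls 1 to 3 within cluster 4 from 1 to 10 UMIs a sample, against 12.0 to 14.2 CPM in the rest. It was higher in 5 of 6 samples with a mean log2 ratio of 0.74 ± 0.80, control 1 with 1 UMI being the exception. Bad, a BH3-only protein controlled by phosphorylation, was higher in 4 of 6 samples, and Bik, a BH3-only protein of the endoplasmic reticulum, in 2. The spread of both over samples exceeded the size of their mean ratio.

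Of the anti-apoptotic members, Mcl1 had 24.2, 39.1 and 31.5 CPM in Rb1 cKO samples 1 to 3 and 6.96, 12.6 and 45.5 CPM in controls 1 to 3 within cluster 4, against 22.6 to 33.0 CPM in the rest, and a mean log2 ratio of -0.20 ± 0.88. Bcl2l1, which encodes BCL-XL, had 32.3, 19.6 and 14.0 CPM in Rb1 cKO samples 1 to 3 and 20.9, 12.6 and 6.06 CPM in controls 1 to 3 within cluster 4, against a mean of 17.9 ± 1.86 CPM in the rest (SD, n = 6), and a mean log2 ratio of -0.18 ± 0.63. Each was higher in cluster 4 in 3 samples and lower in 3. Bcl2 had 1 UMI in cluster 4, and its whole libraries held 0.256, 0.476 and 0.892 CPM in Rb1 cKO samples and 0.640, 1.05 and 0.635 CPM in controls.

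Among caspases and their regulators, Apaf1 alone was higher in cluster 4 in every sample. Apaf1, on chromosome 10 from 90989311 to 91082770, encodes the scaffold of the apoptosome. It had 8.08, 19.6 and 21.0 CPM in Rb1 cKO samples 1 to 3 and 27.8, 44.1 and 33.3 CPM in controls 1 to 3 within cluster 4 from 1 to 11 UMIs a sample, against 4.91 to 8.53 CPM in the rest, and a mean log2 ratio of 1.60 ± 0.76. The smallest ratio was that of cKO 1, which rests on 1 UMI. Casp2, which encodes the initiator caspase of the PIDDosome, had 16.2, 14.7 and 21.0 CPM in Rb1 cKO samples 1 to 3 and 20.9, 18.9 and 15.2 CPM in controls 1 to 3 within cluster 4, against 14.6 to 19.8 CPM in the rest, with a mean log2 ratio of 0.04 ± 0.26. These values overlapped those of the rest.

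Casp9, the caspase that APAF1 activates, had 0, 14.7 and 6.99 CPM in Rb1 cKO samples 1 to 3 and 0, 12.6 and 0 CPM in controls 1 to 3 within cluster 4 from 0 to 3 UMIs a sample, against 6.06 to 8.06 CPM in the rest. It was lower in 4 of 6 samples, in 3 of which it had 0 UMIs. The mean log2 ratio was -1.17 ± 1.85, and pooled over samples Casp9 in cluster 4 was 0.828 of its level in the rest. Xiap, an inhibitor of caspases, was lower in 5 of 6 samples with a mean log2 ratio of -1.21 ± 1.82, and pooled over samples its level in cluster 4 was 0.774 of that in the rest from 20 UMIs. Diablo, which relieves that inhibition, was higher in 5 of 6 with 0.15 ± 0.23. Casp8, the initiator caspase of death receptors, had 1 UMI in cluster 4, and its whole libraries held 0.512, 0.397 and 0.178 CPM in Rb1 cKO samples and 0.457, 0.132 and 0.231 CPM in controls. Of the receptors themselves, Tnfrsf10b was higher in 5 of 6 samples with a mean log2 ratio of 0.76 ± 0.70, and Fas had 2 UMIs in cluster 4.

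Individual cells of cluster 4 ranged widely in these transcripts. The per-cell sum was taken over the 14 targets of growth arrest, repair and stress without Rps27l, a choice made after values had been seen. It had a median of 726 CPM in the 98 cells of cluster 4, with quartiles of 503 and 1101 CPM, against a median of 242 CPM in the rest, with quartiles of 142 and 367 CPM. These sums stand on a median of 10 UMIs a cell in cluster 4 and 3 in the rest, and counting error is large at such numbers. The 95th percentile of the rest was 626 CPM, and 40 of the 98 cells of cluster 4 lay below it. By sample, the median in cluster 4 was 1032, 769.9 and 424 CPM in Rb1 cKO samples and 954, 1003 and 745 CPM in controls, against 214 to 267 CPM in the rest. The sample cKO 3 had the lowest median in cluster 4 and in the rest.

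Genes of the pathway beyond the 39 were counted from 3 further lists, also chosen with earlier results known. Among all 8427 genes past the level filter, 4.05% were higher in cluster 4 in every sample and 5.16% were lower. Of 22 further p53 targets, 15 passed the level filter and 7 were higher in cluster 4 in 6 of 6 samples, 0 lower, with a median log2 ratio of 0.76. Cdkn1a, which encodes the cyclin-dependent kinase inhibitor p21, had 290.5 ± 86.6 CPM in cluster 4 and 74.0 ± 9.26 CPM in the rest (SD, n = 6), a mean log2 ratio of 1.91 ± 0.39. Past the filter, Polk, a polymerase of damage tolerance, had 1.79, and Pidd1, the scaffold that activates caspase-2, had 1.38. Psrc1, below the filter, had 2.33 from 38 UMIs and was higher in 6 of 6. Of 18 genes of the p53 family and its upstream regulators, such as the damage kinases, 15 passed the filter, 1 was higher in 6 of 6 samples and 0 lower, and the median was 0.00. That gene was Rchy1, a p53-induced ubiquitin ligase, at 0.80, and Kat5 had 0.38. Hipk2 had -1.26 ± 1.57 from 6 UMIs in cluster 4 and was lower there in 4 of 6 samples. Pooled over samples, its level in cluster 4 was 0.622 of that in the rest. Trp63 had 0 UMIs in cluster 4. Of 25 further apoptosis genes, 14 passed the filter, 1 was higher in 6 of 6 samples (Birc5, at 0.22) and 2 were lower (Cycs, at -0.15, and Parp1, at -0.22), with a median of 0.08. Past the filter, the largest ratios in that list were 0.78 for Fadd, 0.62 for Htra2 and 0.45 for Endog, and below it Dffb, the nuclease of apoptotic DNA fragmentation, had 1.46 from 15 UMIs and was higher in 6 of 6 samples.

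Levels were also set side by side over all 5 clusters. Cluster 4 held the highest level in 6 of 6 samples for 10 of the 29 members past the level filter, against 1.33% of all 8427 genes past it, and for Plk2 below the filter. Within clusters 0 to 3, Trp53 was highest in cluster 1, which was led by Cdc20 and Ccnb1, in 6 of 6 samples, at 311 ± 11.7 CPM, against 262 to 278 CPM on average in the other 3 (SD, n = 6). Btg2 was lowest in cluster 2, which was led by histone genes, in 6 of 6 samples, at 10.1 ± 2.84 CPM against 17.7 to 19.2 CPM. Bad was also lowest in cluster 2 in 6 of 6 samples, at 12.4 ± 4.52 CPM against 19.5 to 33.3 CPM. Bik was highest in cluster 0 in 6 of 6 samples, at 12.7 ± 2.76 CPM against 3.10 to 8.03 CPM, and is one of the genes that lead that cluster. Rps27l was lowest in cluster 1 in 6 of 6 samples, at 1716 ± 106 CPM against 1824 to 1888 CPM. In 5 of 6 samples Ccng1, Pmaip1 and Sesn1 were highest in cluster 1, Bid was highest in cluster 0, and Tnfrsf10b and Plk2 were highest in cluster 3. In 5 of 6 samples, too, Trp53inp1, Bbc3 and Bik were lowest in cluster 2 and Zmat3 was lowest in cluster 3. Zmat3 had 7.19 ± 6.02 CPM in cluster 3 against 7.58 to 8.03 CPM on average in clusters 0 to 2, a difference well within its spread. Plk2, below the level filter, had 7.19 ± 8.51 CPM in cluster 3, so its order also had a wide spread. The share of all genes with such orders within clusters 0 to 3 was not counted. These orders are therefore a description and are not shown to be particular to the members.

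**Figure D3:**
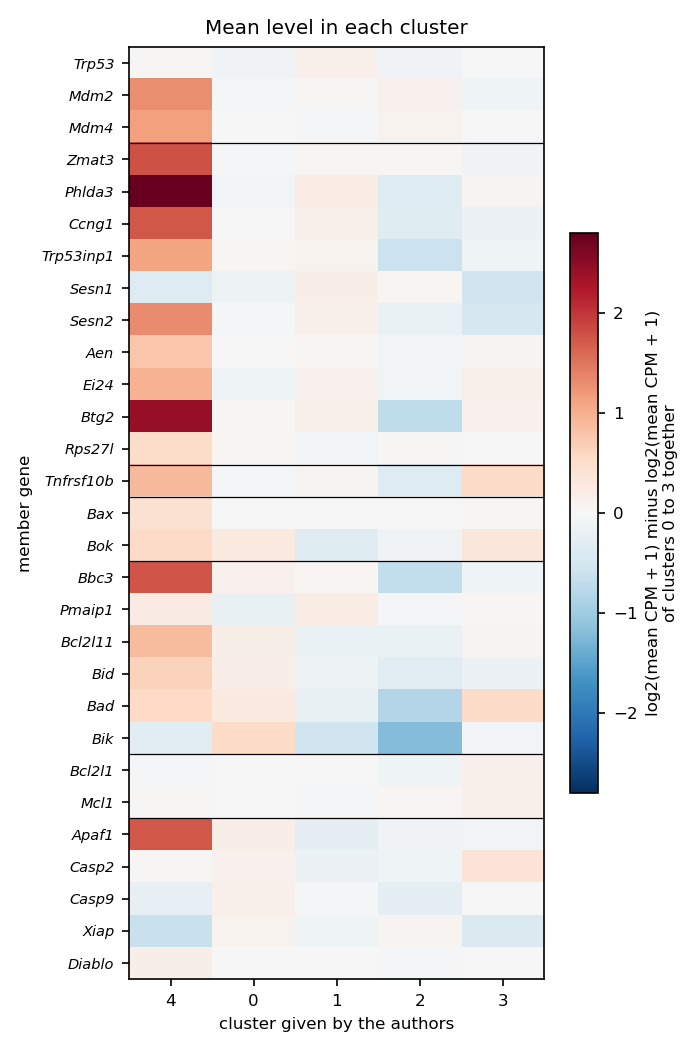
Colour gives log2(mean CPM + 1) of each of 29 members in each of the authors' 5 clusters (mean of 6 samples), minus the same value for the summed cells of clusters 0 to 3; rows are grouped by role with lines between the groups. Cluster 4, in the left column, is darkest for Phlda3 and Btg2, and among the other columns cluster 2 is the bluest for Btg2, Bad and Bik.

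Rb1 cKO and control samples were then compared over all cells. This asks whether the members changed with the genotype, which the choice of cells in cluster 4 did not use. edgeR's quasi-likelihood test over 11540 genes called 0% of them at an adjusted p under 0.05, and 0 of the 35 members tested. Rb1 was not called either, although its groups did not overlap. It had 3.46 to 3.73 CPM in Rb1 cKO samples and 6.87 to 10.3 CPM in controls. A count of 0 called therefore does not show that no gene changed. At an unadjusted p under 0.05 there were 205 genes higher and 200 lower in Rb1 cKO samples, of which 2 were members. DESeq2 called 4 genes, edgeR without a low-count filter called 6 and edgeR without control 3 called 4, in each case 0 of them members. The median log2 fold change of Rb1 cKO over control was -0.06 over the 35 members, of which 13 were positive and 22 negative, and 0.00 over all genes tested. Trp73, Fas, Bcl2 and Casp8 had too few UMIs to be tested.

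The summed level of the 39 members was 3548 ± 192 CPM in Rb1 cKO samples and 3612 ± 140 CPM in controls (SD, n = 3 each). Without Rps27l it was 1740 ± 133 CPM in Rb1 cKO samples and 1755 ± 20.3 CPM in controls. The Rb1 cKO samples spread more, from 1592 CPM in cKO 3 to 1850.5 CPM in cKO 2, and the groups overlapped.

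The 5 members with the smallest p came nowhere near the adjusted threshold. Plk2 had 1.41, 1.83 and 1.43 CPM in Rb1 cKO samples and 1.37, 6.45 and 3.69 CPM in controls, a log2 fold change of -1.26 ± 0.50 (SE) and an unadjusted p of 0.0345 by edgeR, with an adjusted p of 0.994. Control 1 lay with the Rb1 cKO samples and the difference came from controls 2 and 3. Sesn2 had 22.3, 19.2 and 20.5 CPM in Rb1 cKO samples and 21.8, 26.3 and 25.4 CPM in controls, a log2 fold change of -0.27 ± 0.11 (SE) and an unadjusted p of 0.0389 by edgeR, with an adjusted p of 0.994. Its groups overlapped, since cKO 1 exceeded control 1. Perp had 2.43, 1.83 and 1.55 CPM in Rb1 cKO samples and 1.74, 4.21 and 2.89 CPM in controls and a log2 fold change of -0.63 ± 0.34 (SE), with control 2 the highest.

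Bid had 20.7, 20.1 and 21.8 CPM in Rb1 cKO samples and 21.9, 24.0 and 29.7 CPM in controls and a log2 fold change of -0.29 ± 0.14 (SE). The groups did not overlap, though cKO 3 at 21.8 CPM and control 1 at 21.9 CPM nearly met. Gadd45a, a stress sensor of growth arrest, was the other member without overlap, at 2.95 ± 0.446 CPM in Rb1 cKO samples and 3.55 ± 0.0821 CPM in controls (SD, n = 3 each). Both were lower in Rb1 cKO samples, and 8.62% of all genes tested showed no overlap in either direction, against 2 of 35 members. Sesn1 had 8.07, 7.46 and 5.41 CPM in Rb1 cKO samples and 6.49, 3.68 and 4.73 CPM in controls and a log2 fold change of 0.44 ± 0.24 (SE), the largest positive value, and its groups overlapped.

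The central genes of the network lay close to no change. Trp53 had 283, 281 and 270 CPM in Rb1 cKO samples and 274, 283 and 295 CPM in controls, with a log2 fold change of -0.05 ± 0.07 (SE). Mdm2 had 74.3, 75.8 and 72.5 CPM in Rb1 cKO samples and 70.5, 80.7 and 65.1 CPM in controls, with a log2 fold change of 0.03 ± 0.08 (SE). Bax had 629.9, 731 and 575 CPM in Rb1 cKO samples and 688, 639 and 646 CPM in controls, with a log2 fold change of -0.04 ± 0.09 (SE). The samples of the genotypes were interleaved in each. Bbc3 had a log2 fold change of -0.22 ± 0.17 (SE), Pmaip1 0.21 ± 0.19 (SE), Bcl2l11 -0.03 ± 0.13 (SE), Mcl1 -0.08 ± 0.16 (SE) and Bcl2l1 0.04 ± 0.13 (SE). Among the targets Phlda3 had -0.13 ± 0.17 (SE), Btg2 -0.11 ± 0.19 (SE), Ccng1 0.00 ± 0.15 (SE), Mdm4 -0.10 ± 0.10 (SE), Trp53inp1 -0.06 ± 0.09 (SE) and Zmat3 -0.27 ± 0.15 (SE). Apaf1 had -0.22 ± 0.22 (SE), Casp2 0.21 ± 0.13 (SE) and Casp9 0.05 ± 0.18 (SE). Adjusted p by edgeR lay between 0.994 and 0.9996 for all 35 members. On leaving out at least 1 of the samples, 12 of 24 named members, Trp53, Mdm2 and Bax among them, changed the sign of their log2 fold change.

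**Figure D4:**
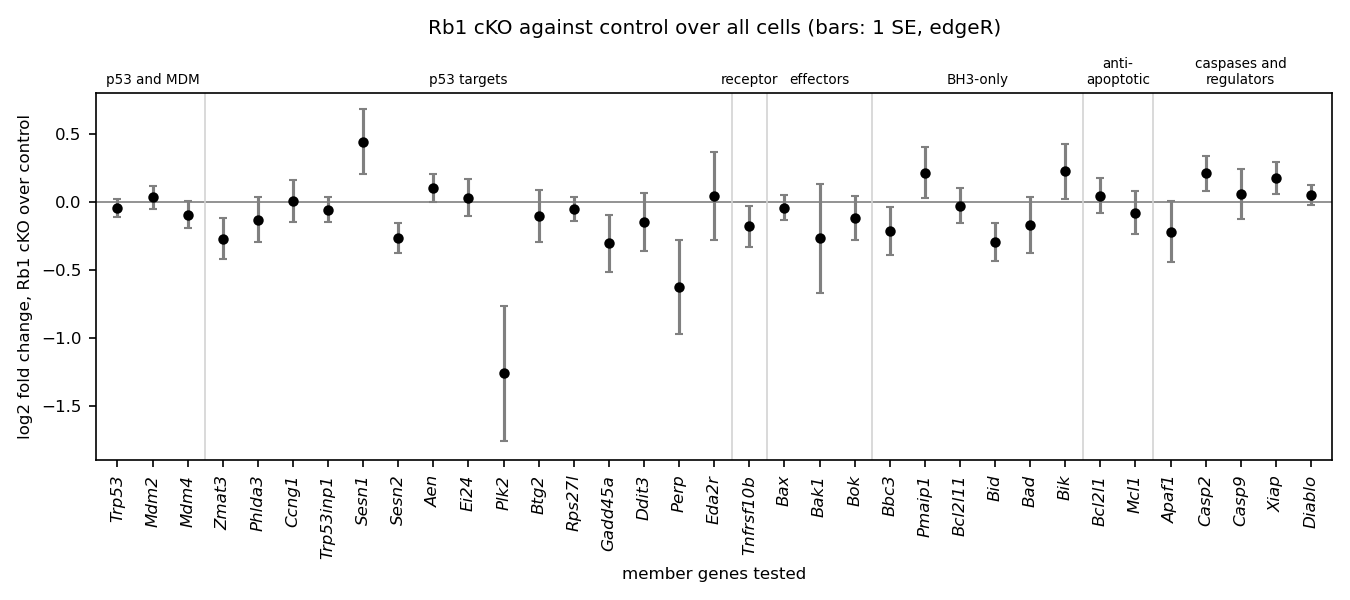
Points are log2 fold changes of Rb1 cKO over control over all cells for the 35 members tested, grouped by role, and bars are 1 standard error from edgeR. Plk2 at -1.26, Perp at -0.63 and Sesn1 at 0.44 lie farthest from 0, and all adjusted p are 0.994 or more.

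The further lists also held 0 called genes. edgeR tested 21 of the 22 further p53 targets, with 0 called and 11 positive and 10 negative, and the largest log2 fold changes were those of Plk3 at -0.77, Rrm2b at 0.28 and Psrc1 at -0.28. Cdkn1a had 83.7 ± 10.6 CPM in Rb1 cKO samples and 71.6 ± 6.04 CPM in controls (SD, n = 3 each) and a log2 fold change of 0.20 ± 0.10 (SE). All 18 upstream genes were tested, with 0 called, 7 positive and 11 negative, and the largest were Atm at 0.22, Trp53bp2 at -0.21 and Prkdc at 0.18. Of the further apoptosis genes 24 were tested, with 0 called, 13 positive and 11 negative, and the largest were Birc3 at -0.61, Bmf at -0.33 and Tradd at 0.33. None of the 3 lists held a gene with an unadjusted p under 0.05 by edgeR.

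Within cluster 4 the genotypes were compared on the summed cells of each sample, which held 123837, 204468 and 286061 UMIs in Rb1 cKO samples and 143646, 158637 and 329844 UMIs in controls. The cluster was made from expression, and the members Phlda3 and Btg2 are among its leading genes. The choice of cells is thus not independent of the levels compared, which limits what a lack of difference can show. edgeR tested 2685 genes and called 0% of them, with 37 higher and 69 lower at an unadjusted p under 0.05. It called 0 of the 15 members tested, of which 3 were positive and 12 negative, with a median log2 fold change of -0.18 against -0.00 over all genes tested. In the level within cluster 4 the groups did not overlap for 3 of the 29 members past the level filter, Sesn2, Apaf1 and Diablo, each lower in Rb1 cKO samples, against 9.18% of all 8427 genes past it in either direction. DESeq2 also called 0 genes, and edgeR without control 3 called 1, which was not a member. The members with an unadjusted p under 0.05 were Sesn2, with a log2 fold change of -0.87 ± 0.37 (SE) and a p of 0.0249, and Btg2, with -0.62 ± 0.29 and a p of 0.0444, both with an edgeR adjusted p of 0.999. The sample cKO 3 had the lowest level in cluster 4 for Phlda3, Mdm2, Ccng1, Trp53inp1, Bbc3 and Btg2. For Btg2, cKO 2 at 68.5 CPM stood near cKO 3 at 62.9 CPM, while cKO 1 had 113 CPM. For Sesn2 each Rb1 cKO sample lay below each control. The part of cKO 3 in these values was not tested.

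The difference of the genotype effect between cluster 4 and the rest was tested itself, with the sample as a block. The limit set by the choice of cells holds here too. edgeR tested 10460 genes and called 0% of them, with 187 higher and 231 lower at an unadjusted p under 0.05. Of the 34 members tested, 0 were called and 0 had an unadjusted p under 0.05, with 13 positive and 21 negative. Leaving out control 1 gave 2 called genes, and leaving out cKO 1, cKO 3, control 2 or control 3 gave 1, in each case 0 members. The smallest unadjusted p of a member by edgeR was 0.0735, for Btg2, with an adjusted p of 1. With 10 to 27 cells of cluster 4 a sample, most members rested on fewer than 50 UMIs per sample there, which limits the size of difference that could be called.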

How the data were processed

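The deposited table holds UMI counts per gene and cell as whole numbers, made by the authors with Cell Ranger, Seurat 3.0 and build mm10, per the submitters' processing notes. No source used here gives the parameters or the annotation release. Sample and cluster of each barcode (resolution 0.2) come from the authors' deposited metadata. The 39 members and the further lists were chosen with earlier results of these data known.

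Barcodes with fewer than 500 genes or with 10% or more of mitochondrial UMIs, 6 in number, were removed. Doublets were called per sample with Scrublet (scanpy 1.11.5) and kept. Counts were summed per sample, and printed CPM use the plain library total. Genotypes were tested with edgeR 4.0.16 in R 4.3.3 (robust quasi-likelihood test, TMM factors, filterByExpr, two-sided, Benjamini-Hochberg over all genes tested, threshold 0.05), with DESeq2 1.42.0 as an alternative. The scripts were tested on simulated counts. Cluster 4 was compared with the rest by description, with a pseudocount of 1 CPM and a filter of a mean of 5 CPM. Library totals were 7598511 to 17323152 UMIs, and a count of 0 was read as up to 3 counts; intervals cover counting error only. Shares of cells were compared by an exact permutation test over 20 labelings. Members were matched by symbol to GENCODE M21 (GRCm38) and to RefSeq promoters.

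Values per sample are given for the genes fixed by name, for the 5 members with the smallest unadjusted p over all cells and for the 8 with the largest absolute log2 ratio of cluster 4 past the level filter. Other genes of the further lists are the 3 with the largest change in each. Eda2r, Gadd45a, Ddit3, Aen, Ei24, Bok, Bad, Bik, Xiap, Diablo, Tnfrsf10b, Fas, Dffb and Psrc1, and the genotype values of Cdkn1a, were added after values were seen. Alternatives covered normalization factors, the count tool, filters on genes and cells, doublets, cluster 4 cells left out, the replicate number as a block, the pseudocount and each sample left out.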

Additional observations from a re-analysis of the deposited data

Results flagged for a closer look

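Bax had a log2 ratio of cluster 4 to the rest of 0.61 in control 1, which stood apart from the other 5 samples at 0.35 to 0.42. The value rests on 150 UMIs of Bax in the cluster 4 cells of that sample, and it has the same direction as the others. Chance sets apart about 1 in 20 groups by this measure.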

How the results depend on the processing

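No member was called in Rb1 cKO against control under any of 13 alternatives. Over all cells the number of genes called was 0 in the reported fit, 4 with DESeq2, 6 with no low-count filter and 0 to 4 with a sample left out, the 4 coming without control 3. It was 0 with the replicate block. Deviations from the group mean had correlations of -0.13, 0.23 and 0.20 between same-numbered samples, and -0.31 to 0.16 between the others. Deviations from a mean of 3 samples are bound to each other, so these values cannot tell whether the numbers pair the samples. Within cluster 4 leaving out a sample gave 0 to 1 genes called, and for the difference of effects 0 to 2. Of 312 values of 24 named members under these alternatives, 292 kept their direction, with adjusted p of 0.533 to 0.99996 by edgeR or DESeq2. Ccng1, at 0.00 in the reported fit, turned to -0.0018 with RLE factors, -0.0017 with DESeq2, -0.00086 without cluster 4 cells and -0.0029 with the replicate block. With a sample left out, the log2 fold change ran from -0.076 to 0.0062 for Trp53, -0.016 to 0.099 for Mdm2, -0.17 to 0.00042 for Mdm4, -0.29 to 0.029 for Phlda3, -0.12 to 0.13 for Ccng1, -0.23 to 0.074 for Btg2, -0.11 to 0.037 for Rps27l, -0.15 to 0.018 for Bax, -0.080 to 0.089 for Bcl2l11, -0.058 to 0.15 for Bcl2l1, -0.20 to 0.15 for Mcl1 and -0.034 to 0.18 for Casp9. The difference in the share of cells in cluster 4 ran from -0.258 to 0.0728 percentage points. The cause was not tested. For cluster 4 against the rest, 14 to 16 members were higher in every sample under the alternatives. With a sample left out this asks only for the remaining samples, so the count can hardly fall. The median log2 ratio ran from 0.46, without Mdm2, Phlda3, Ccng1, Btg2 and Bbc3, to 0.73, without cKO 3. Of 240 values of named members under the alternatives, 239 moved by less than the spread between samples. The other was Plk2, at 2.24 with a pseudocount of 5 CPM. The pooled sums and the leaving out of those 5 members were chosen after seeing the data. Depth limits the members with few UMIs in cluster 4, among them Bak1, Bcl2, Casp8, Fas and Trp73.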

Other observations

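Cells outside cluster 4 also reached high sums of the 14 p53 targets without Rps27l. Of 5056 cells in clusters 0 to 3, 133 (2.63%) lay above 726 CPM, the median of cluster 4, and the highest stood at 3125 CPM. Their share of the cells outside cluster 4 was 4.26%, 3.24% and 1.49% in Rb1 cKO samples and 1.56%, 4.52% and 2.64% in controls, so the genotypes overlapped. By cluster the share was 2.17% in cluster 0, 3.49% in cluster 1, 0.313% in cluster 2 (2 of 640 cells) and 5.25% in cluster 3 (18 of 343 cells). Their median depth was 11633 UMIs, against 13998 over all cells outside cluster 4, and the part of depth in these shares was not tested. The sum and its limit were chosen after values had been seen.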
